A study of Mus musculus with 18 samples.

Results

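The proteasome genes of mouse colon were taken as the rows of the deposited gene table whose KEGG annotation (Kyoto Encyclopedia of Genes and Genomes) lists the pathway Proteasome. The rule gave 47 of 35405 genes. They comprised 14 constitutive subunits of the 20S core, the 3 inducible catalytic subunits Psmb8, Psmb9 and Psmb10, 6 ATPases and 13 non-ATPase subunits of the 19S regulator, and 5 genes for activators and an inhibitor (Psme1 to Psme4 and Psmf1). The assembly factor Pomp, the chaperone Psmd9, the Psme2 copy Psme2b, the tissue-restricted core subunits Psma8 and Psmb11 and the cytokine gene Ifng, which KEGG lists as the inducer, made up the rest. Of the 47 genes, 45 had enough counts to be tested, among 20855 genes in all, while Psmb11 and Ifng did not.

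RNA sequencing of polyadenylated RNA was deposited for 18 libraries of colon tissue, 6 in each of the groups vector, TNBS and IBC. Vector libraries are the controls, TNBS is trinitrobenzene sulfonic acid, a hapten that induces colitis when given rectally, and IBC is isobavachalcone, a plant chalcone that the study title sets against TNBS colitis. No label states if TNBS was also given to the IBC group, and none gives a strain, age, sex, dose or time. Separate animals are not stated either, so the p-values cover the spread between these libraries, which may be technical.

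The 20S core is a barrel of stacked rings, in which alpha subunits form the gate and the beta subunits Psmb5, Psmb6 and Psmb7 cut peptide bonds. The 19S regulator binds ubiquitin-tagged proteins, unfolds them with its ATPase ring and feeds them into the core. Interferon gamma induces Psmb8, Psmb9 and Psmb10, which replace Psmb5, Psmb6 and Psmb7 in newly made cores (the immunoproteasome) and change the peptides cut for presentation on major histocompatibility complex (MHC) class I, and leukocytes hold these subunits without induction.

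Promoter sequences of the catalytic subunits are shown because these subunits carry the comparison of constitutive and inducible genes. The RefSeq table of mouse promoters (build GRCm38.p6, 250 bases before to 50 after each start) matched 40 of the 47 genes. The stretches below are those of catalytic subunits with a match to a motif known for proteasome or interferon control, and the interval that Psmb9 shares with Tap1, a peptide transporter subunit of the class I pathway. Each is written 5′ to 3′ on the strand of its gene (that of Tap1 for the shared interval), with the matching bases in capitals. The Psmb5 stretch lies at chr14:54617996-54618082 (minus strand), that of Psmb6 at chr11:70525308-70525356 (plus strand), that of Psmb8 at chr17:34198058-34198146 (plus strand), and the shared interval at chr17:34187331-34187555.
Psmb5: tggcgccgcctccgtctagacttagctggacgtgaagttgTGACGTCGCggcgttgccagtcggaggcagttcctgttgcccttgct
Psmb6: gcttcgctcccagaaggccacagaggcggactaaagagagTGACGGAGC
Psmb8: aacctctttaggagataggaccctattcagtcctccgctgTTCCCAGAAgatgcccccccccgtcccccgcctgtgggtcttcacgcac
Tap1-Psmb9: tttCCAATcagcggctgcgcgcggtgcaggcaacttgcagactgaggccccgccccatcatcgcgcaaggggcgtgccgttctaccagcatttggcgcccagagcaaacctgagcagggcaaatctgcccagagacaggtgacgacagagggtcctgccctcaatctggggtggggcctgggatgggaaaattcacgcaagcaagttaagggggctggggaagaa

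The capitals of Psmb5 and Psmb6 match the antioxidant response element TGACNNNGC, the binding motif of the transcription factors Nfe2l1 and Nfe2l2 that are known to drive proteasome genes. In Psmb5 the match begins 47 bases before the start site, and in Psmb6 it begins 9 bases before it. This motif, searched on both strands, was found for 8 of the 40 genes (20%), against 12.4% of the 32851 promoters in the table. Here and below, the share of the members counts genes and that of the table counts promoters, so the shares are of unlike units. The capitals of Psmb8 match the gamma-activated sequence TTCNNNGAA, a motif of interferon gamma signalling, 97 bases before the start. It was found for 3 of 40 genes (7.5%), namely Ifng, Psmb8 and Psmd2, against 8.30% of all promoters. The interferon-stimulated response element was found for 4 of 40 genes (10%), namely Psmb3, Psmd4, Psmd9 and Psme1, against 3.44% of all promoters. Psmb9 and Tap1 start 225 bases apart and are read in opposite directions, and the capitals there mark a CCAAT box. That box was found for 35% of the member genes and in 37.4% of all promoters. Of the 3 inducible subunits, the gamma-activated sequence was found for Psmb8 alone and the CCAAT box for Psmb9 alone, and each motif also occurred in other members. Shares by inducible and constitutive genes were not compared. The matches are descriptions of letters in a window, with no binding measured.

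The 18 libraries held 5.57e+07 to 7.89e+07 counts each, and the proteasome genes took between 0.336% (vector 3) and 0.728% (IBC 5) of them. Levels are given as CPM, the share of the scaled library total in counts per 1000000. As colon tissue, the libraries held summed levels of 8 epithelial markers (Epcam, Krt8, Vil1 and others) of 8278 to 14811 CPM and of 8 smooth muscle markers of 1932 to 8563 CPM. Hoxb13, a homeobox gene known from the distal colon, divided them into 12 libraries of 10 CPM or more and 6 below it, 4 and 2 in each group. The Hoxb13-low libraries were vector 3 and 4, TNBS 2 and 3, and IBC 2 and 5. For each comparison below, the counts and medians of the members are also given within each set. Ratios within the sets are given only where their direction turned.

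Levels are compared between genes per length only. Per length, in FPKM (fragments per kilobase of gene, scaled to the library total) averaged over the 18 libraries, the core subunit Psmb4 stood highest at 102 ± 32.9, followed by the alpha subunit Psma6 at 93.7 ± 29.0 and the inducible Psmb10 at 74.0 ± 29.1 (SD, n = 18). The ATPase Psmc5 (69.7 ± 18.5) led the 19S ATPases, and Psmd2 (52.1 ± 10.2), the scaffold that receives ubiquitin shuttles, led the non-ATPase subunits. Among the activators Psme2, a subunit of the interferon-inducible cap PA28, was highest (58.2 ± 22.6). Low levels were found for the inhibitor Psmf1 (4.51 ± 0.502) and the chaperone Psmd9 (3.49 ± 0.892).

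Some of this order rests on the gene lengths behind the deposited FPKM. With counts divided by the longest coding transcript of GENCODE M21 (CPM per kilobase), Psmb4 stayed first (189.5), but Psmc3 (91.8) led the ATPases, Psmd8 (85.1) the non-ATPase subunits and Psma7 (145) the alpha subunits. Psme1 (121.8) and Psme2 (121.1) were then close together, and Psmb10 (108) came in place 11 of 45.

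The testis-restricted Psma8 was near the limit of detection, with 0 to 35 counts per library and no count in 2 of the 18. Psmb11, the catalytic subunit of thymic epithelium, had no count in 13 libraries and at most 18 in the others. Ifng had no count in 7 libraries and at most 58 counts, in TNBS 3.

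The order of the 6 catalytic subunits depended on the length in the same way. On the deposited FPKM scale Psmb10 (74.0) was followed by Psmb6 (57.3), Psmb5 (43.8), Psmb7 (28.3), Psmb8 (17.2) and Psmb9 (8.70). The FPKM values imply lengths above those of the mRNAs, for instance 2064 bases for Psmb6, whose longest coding transcript in GENCODE M21 has 798, and 4040 for Psmb9, whose transcript has 1352. With counts divided by these transcript lengths (CPM per kilobase), Psmb6 came first (152), ahead of Psmb10 (108), Psmb7 (94.1), Psmb5 (49.4), Psmb8 (40.2) and Psmb9 (26.3). Psmb9 was lowest and Psmb8 next to lowest on both scales.

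**Figure D1:**
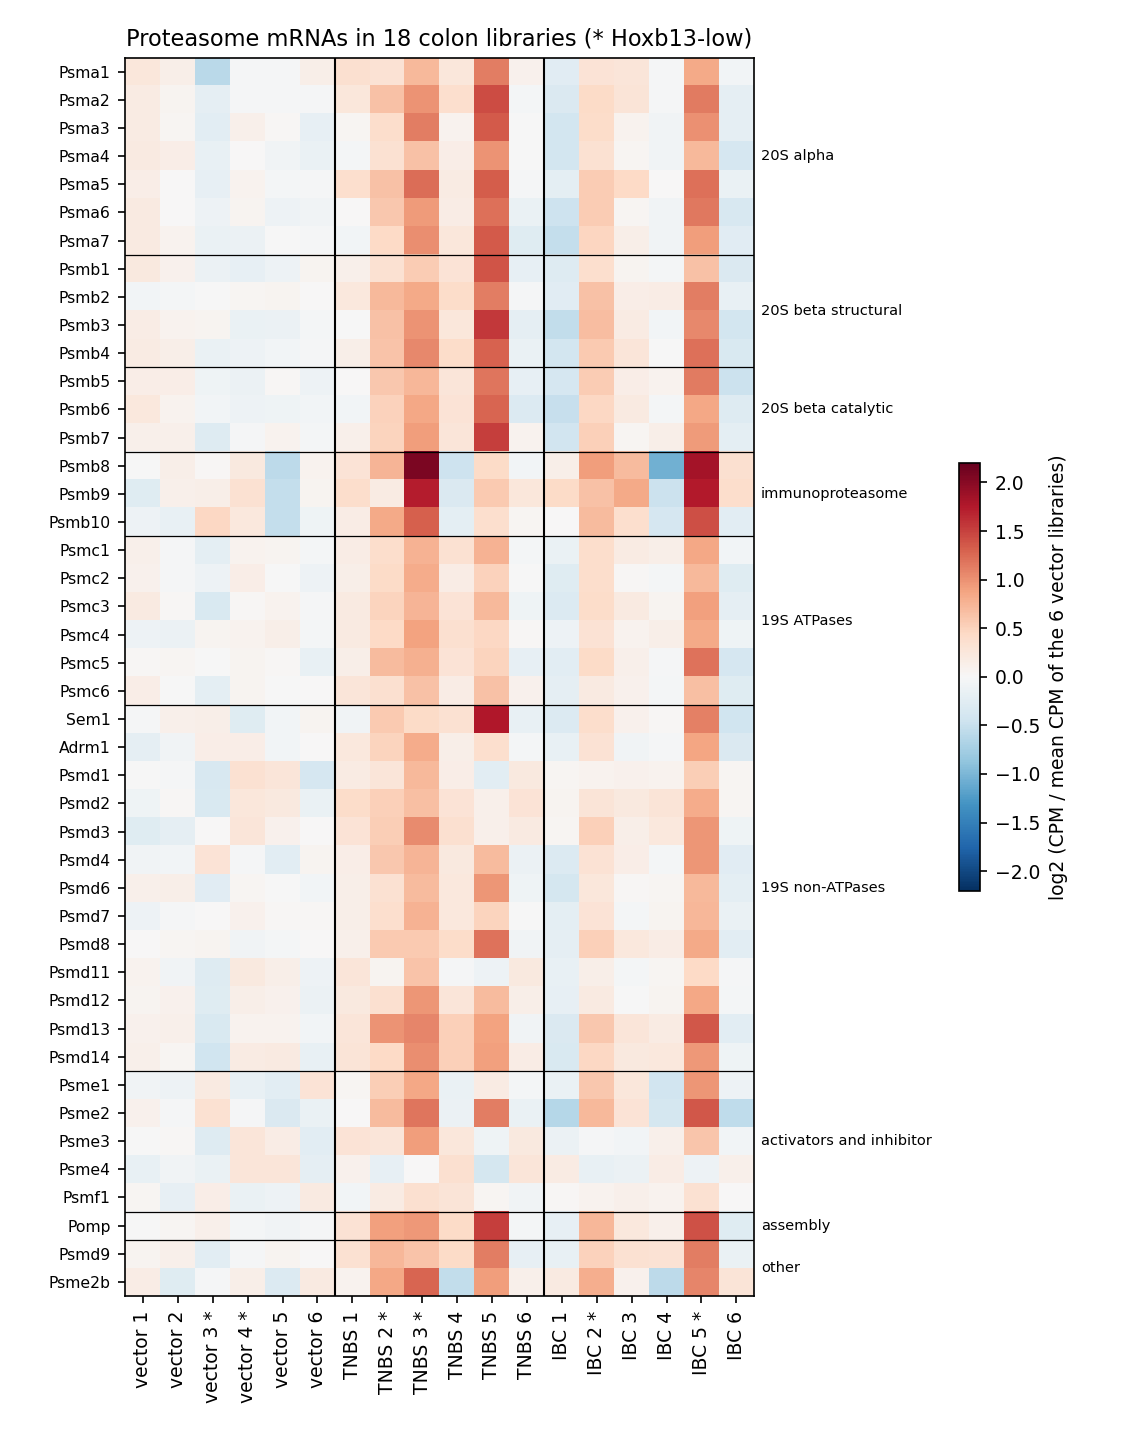
Level of 44 proteasome genes (rows, by role) in each library (columns), as log2 of CPM over the mean CPM of the 6 vector libraries, with red above and blue below that mean and Hoxb13-low libraries starred. TNBS 3, TNBS 5 and IBC 5 are red across the core, TNBS 2 and IBC 2 paler, and the 3 inducible subunits are darkest in TNBS 3 and IBC 5 but pale in TNBS 5.

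Against vector, TNBS libraries show how these genes stood in the colitis model. All 45 tested genes had a higher mean in TNBS, by a median of 0.51 on the log2 scale, against -0.01 over all genes tested, where 48.9% were higher. The smallest difference was that of Psme4 (0.05) and the largest that of Pomp (0.77). No member passed edgeR's quasi-likelihood test at an adjusted p of 0.05 (the lowest was 0.186, for Psmd14), and 0.0192% of all genes did. At an unadjusted p under 0.05, 27 of 45 were higher (60%) and none was lower, where the background was 10.4% of all genes higher and 7.32% lower. DESeq2 also called 0 of 45 after adjustment, against 2.89% of all genes, and had 31 of 45 higher at an unadjusted p under 0.05 (background 12.7%).

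The higher means came from a part of the libraries. As the geometric mean of its 14 genes, the constitutive core stood at 89.96 to 113 CPM in the vector libraries, with a median of 98.0. In TNBS it was 247 in TNBS 5, 188 in TNBS 3 and 144 in TNBS 2, then 120 in TNBS 4, 108 in TNBS 1 and 94.0 in TNBS 6. The last 2 of these lay within the vector range. TNBS 5 was the highest of all 18 libraries in each of the 14 core genes, at 1.99 (Psma4) to 2.93 (Psmb3) times the vector mean.

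Leaving out TNBS 3 lowered the members higher at an unadjusted p under 0.05 from 27 to 12 (background 7.72%), and leaving out TNBS 5 lowered them to 15 (background 7.85%). They were 22 without TNBS 2 (background 9.96%) and 18 to 23 without any 1 vector library (background 8.42% to 9.30%). Leaving out TNBS 4, TNBS 6 or TNBS 1 raised them to 36, 34 and 32 (backgrounds 11.1%, 13.8% and 11.2%). With the Hoxb13 set as a covariate in the fit they were 34 (background 11.9%). Without both TNBS 5 and vector 3, which had the lowest scaling factors (0.813 and 0.861), 6 of 45 remained under that limit, against 6.29% of all genes, and the median was 0.36. Within the Hoxb13-high libraries alone the median was 0.33, with 8 of 45 under the limit (background 7.03%). Within the Hoxb13-low libraries, 2 a group, it was 0.75, with 30 of 46 tested under the limit (background 6.29%).

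Catalytic subunits of the constitutive core showed this pattern. Psmb5, which cuts after bulky hydrophobic residues, ran from 33.4 to 40.7 CPM in vector (median 35.6) and from 32.2 to 82.9 in TNBS (median 49.4). Psmb6, which cuts after acidic residues, ran from 94.2 to 118 CPM (median 97.2) and from 82.0 to 247 (median 135). Psmb7, which cuts after basic residues, ran from 71.8 to 94.2 CPM (median 88.5) and from 92.2 to 250.4 (median 113). The groups overlapped for all 3, and TNBS 5 was the highest library for each. Their log2 differences were 0.51 ± 0.25, 0.53 ± 0.25 and 0.67 ± 0.25 (SE), with adjusted p of 0.301, 0.277 and 0.207. Without TNBS 5 those of Psmb6 and Psmb7 were 0.33 and 0.43.

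The other core subunits lay within a narrow band. Over the 14 core genes the median difference was 0.58, from 0.39 (Psma4) to 0.72 (Psma5), and 11 of 14 had an unadjusted p under 0.05. Psma5 ran from 66.0 to 82.4 CPM in vector (median 74.2) and from 73.4 to 189 in TNBS (median 107), a difference of 0.72 ± 0.25 with adjusted p of 0.197. Psmb2, a structural beta subunit, held the vector libraries between 69.7 and 75.2 CPM, and ran from 70.9 to 158 in TNBS (adjusted p 0.203). In TNBS 6 Psmb2 was inside the vector range, and the other 5 TNBS libraries lay above it.

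Subunits of the 19S regulator had smaller median differences than the core, a gap that was not tested. The 6 ATPases had a median difference of 0.41 (0.37 for Psmc2 to 0.43 for Psmc1), with 5 of 6 at an unadjusted p under 0.05. Psmc4, the ATPase with the smallest p, ran from 73.7 to 88.1 CPM in vector and from 82.5 to 149.99 in TNBS (difference 0.42 ± 0.16, adjusted p 0.215). The 13 non-ATPase subunits had a median of 0.43, from 0.19 (Psmd11) to 0.67 (Psmd13), with 9 of 13 under the limit.

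Psmd14, the deubiquitinase that removes ubiquitin chains as a substrate enters, had the smallest p of all members. It ran from 44.3 to 68.9 CPM in vector (median 63.3) and from 67.4 to 123 in TNBS (median 84.3), so that TNBS 6 alone fell inside the vector range. Its difference was 0.59 ± 0.20 (unadjusted p 0.00794, adjusted p 0.186). Psmd12 was the only member whose groups did not overlap, with 52.3 to 68.9 CPM in vector and 69.0 to 124 in TNBS, where 0.432% of all genes were higher without overlap. This gene was chosen after its values were seen.

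TNBS 5 differed from TNBS 3 and IBC 5 in the balance of core and regulator. Its ATPases were 1.51 times and its non-ATPase subunits 1.53 times the vector mean, beside 2.46 times for the core. In TNBS 3 the same quantities were 1.71, 1.73 and 1.87, and in IBC 5 they were 1.82, 1.82 and 2.00. Within its 19S subunits, Psmd1, a scaffold of the base, was lowest at 0.852 times the vector mean. Sem1, a small peptide of the lid, was highest at 3.39 times. TNBS 5 also had the lowest scaling factor (0.813). Outside the proteasome it was the lowest library for Cdh1 (266 CPM), Myh11 (86.7 CPM) and Kdr (6.24 CPM), and the highest for Cdk1 (97.3 CPM). The longest coding transcript has 3112 bases for Psmd1, 1472 for Sem1 and 3850 for Pomp, which was at 2.87 times the vector mean. Also under the vector mean in TNBS 5 were Psme4 (6491 bases, 0.768 times), Psmd11 (2848 bases, 0.925 times) and Psme3 (2664 bases, 0.942 times). The core subunits Psma2 (2911 bases) and Psma3 (2846 bases) were at 2.71 and 2.54 times. The part of transcript length, RNA quality and library composition was not tested. Summed levels of 6 neutrophil markers were 249.9 CPM in TNBS 5 and at most 71.9 in the other 17 libraries. S100a9 (118 CPM) and S100a8 (80.9 CPM) were the largest parts of the TNBS 5 sum. These 2 genes, Mmp8 and Retnlg were highest in TNBS 5. Csf3r was highest in IBC 1 (20.4 CPM, against 13.8 in TNBS 5) and Cxcr2 in IBC 6 (5.87 CPM, against 4.73). All 6 markers had a higher mean in TNBS than in vector, and the sums of 6.50 to 249.9 CPM in TNBS lay above the 1.75 to 4.04 of vector in every library. The part of neutrophils in these results was not tested.

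**Figure D2:**
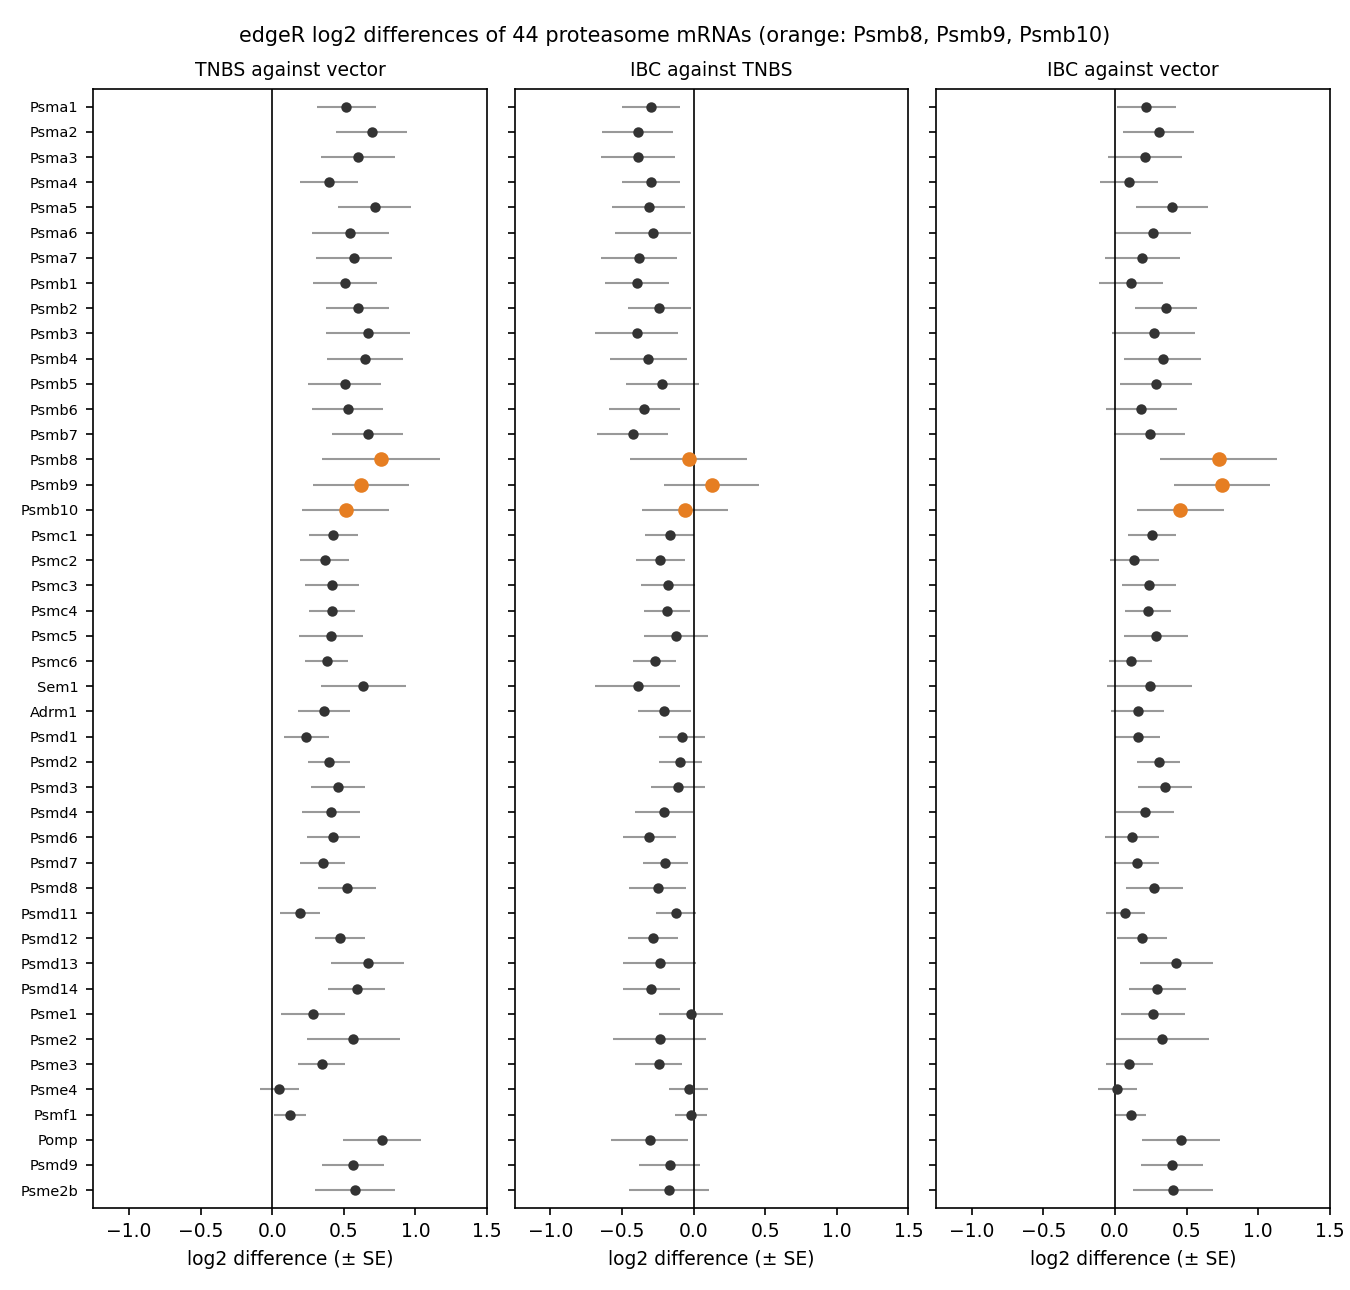
edgeR log2 difference ± SE of each of 44 proteasome genes in the 3 comparisons, with Psmb8, Psmb9 and Psmb10 in orange. All points lie above 0 against vector, and those of IBC against TNBS lie below it apart from Psmb9, whose SE spans 0.

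Pomp, the chaperone that matures the core, was the member with the largest difference between TNBS and vector. Vector libraries held 68.2 to 78.2 CPM (median 71.5) and TNBS libraries 70.4 to 207 (median 116), with TNBS 6 inside the vector range and the other 5 above it. The difference was 0.77 ± 0.27, with adjusted p of 0.197. Psmd9 (0.57 ± 0.22, adjusted p 0.212) and Psme2b (0.58 ± 0.28, adjusted p 0.288) were of like size. Psme2b resembles Psme2, so the counts of the pair may not be fully separated.

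Activators that cap the core and their inhibitor had a median difference of 0.28, and 0 of 5 had an unadjusted p under 0.05. Psme1 and Psme2 form the interferon-inducible cap PA28. Psme1 ran from 101 to 147 CPM in vector and from 107 to 214 in TNBS (0.28 ± 0.22, adjusted p 0.492), and Psme2 from 75.4 to 118 CPM in vector and from 84.7 to 210.3 in TNBS (0.57 ± 0.33, adjusted p 0.356). Both were highest in IBC 5, at 233 and 241 CPM, and were next in TNBS 3.

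Psme3, the nuclear cap that acts without ubiquitin, ran from 86.9 to 128 CPM in vector and from 99.7 to 200.4 in TNBS (0.34 ± 0.17, adjusted p 0.286). Psme4, a cap of nuclear proteasomes, had the smallest mean difference of the members, with 79.8 to 133 CPM over the TNBS libraries and 90.2 to 124 over the vector ones (0.05 ± 0.14, adjusted p 0.857). TNBS 5, the highest library for the core, was the lowest TNBS library for both. Psmf1, an inhibitor of the core, ran from 27.0 to 34.8 CPM in vector and from 28.8 to 38.7 in TNBS (0.13 ± 0.11, adjusted p 0.539). Psma8 differed by 0.33 ± 0.77 (adjusted p 0.837), from the few counts given above.

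Inducible subunits followed another order of libraries. Psmb8, the counterpart of Psmb5, ran from 30.5 to 52.3 CPM in vector (median 46.9) and from 32.9 to 189.8 in TNBS (median 58.1). The level of 189.8 was in TNBS 3, and TNBS 2 came next at 75.9. Psmb9, the counterpart of Psmb6, ran from 17.5 to 32.0 CPM in vector (median 26.9) and from 20.4 to 83.3 in TNBS (median 31.7). Psmb10, the counterpart of Psmb7, ran from 77.3 to 153 CPM in vector (median 104) and from 95.8 to 279 in TNBS (median 134). TNBS 3 was the highest TNBS library and TNBS 4 the lowest for all 3.

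Their log2 differences between TNBS and vector were 0.76 ± 0.41, 0.62 ± 0.33 and 0.51 ± 0.30, with adjusted p of 0.330, 0.327 and 0.364. None of the 3 had an unadjusted p under 0.05. Without TNBS 3 the differences were 0.25, 0.25 and 0.28. In IBC libraries Psmb8 ran from 21.7 to 160.0 CPM (median 65.2), Psmb9 from 18.3 to 85.2 (median 36.7) and Psmb10 from 86.003 to 300.2 (median 129). IBC 5 was the highest and IBC 4 the lowest library for each.

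The constitutive and inducible genes parted in single libraries. TNBS 3 and IBC 5 were high in both, with 188 and 201 CPM in the core and geometric means of 164 and 160.0 CPM for the 3 inducible subunits, which are 3.27 and 3.19 times the vector mean of 50.2. TNBS 5, with the core at 247 CPM, had 69.1 CPM for the inducible subunits, 1.38 times the vector mean. IBC 3 held the reverse, with a core of 113 CPM, at the top of the vector range, and inducible subunits at 78.1 CPM, above all vector libraries. IBC 4 had a core of 100.02 CPM, at the vector mean, and inducible subunits at 32.4 CPM, below every vector library.

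**Figure D3:**
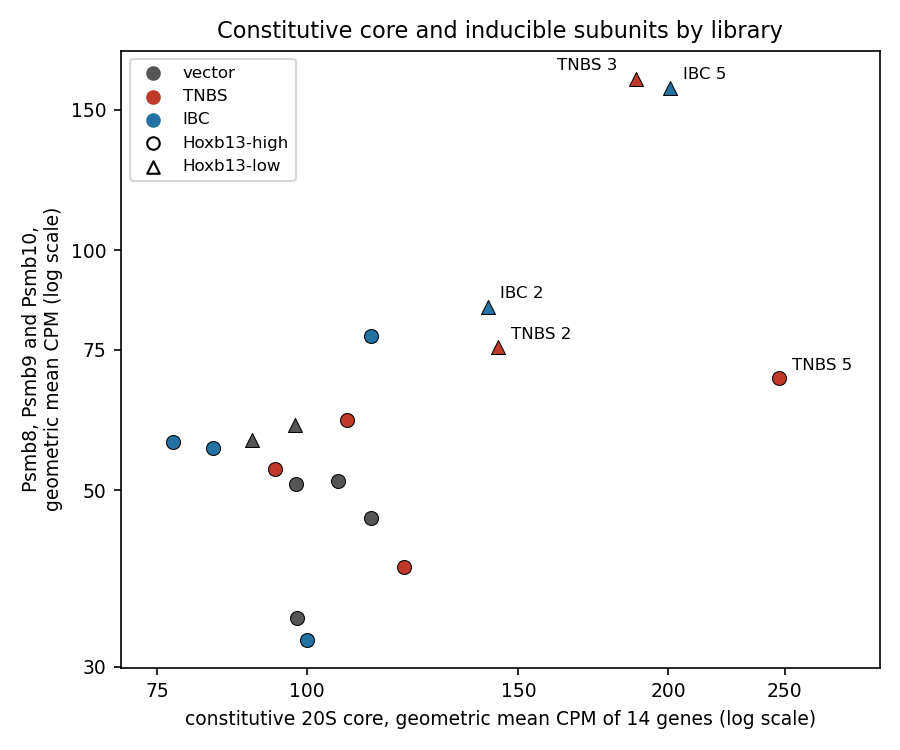
Geometric mean CPM of the 14 constitutive core genes (x axis, log scale) and of Psmb8, Psmb9 and Psmb10 (y axis, log scale), 1 point a library, coloured by group, with triangles for Hoxb13-low libraries. TNBS 3 and IBC 5 lie at the top right, and TNBS 5 lies at the far right, with a core of 247 CPM and inducible subunits of 69.1 CPM.

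Ratios of an inducible subunit to its counterpart within a library do not depend on the scaling of the libraries. The ratio of Psmb8 to Psmb5 in FPKM had a mean of 0.331 ± 0.0692 over the vector libraries, of 0.391 ± 0.232 over TNBS and of 0.438 ± 0.151 over IBC (SD, n = 6 a group). It spread from 0.194 in TNBS 5 to 0.829 in TNBS 3 among TNBS libraries, and from 0.150 in IBC 4 to 0.582 in IBC 6 among IBC libraries. The vector libraries lay between 0.218 and 0.417. The ratio of Psmb9 to Psmb6 was 0.129 ± 0.0315, 0.143 ± 0.0647 and 0.187 ± 0.0575. The ratio of Psmb10 to Psmb7 was 2.65 ± 0.917, 2.47 ± 0.863 and 2.93 ± 0.675 on the same scale. The size of a ratio, though not its differences between groups, rests on the gene lengths. With GENCODE transcript lengths the means over vector, TNBS and IBC were 0.688, 0.813 and 0.91 for Psmb8 to Psmb5, 0.149, 0.166 and 0.216 for Psmb9 to Psmb6, and 1.17, 1.09 and 1.29 for Psmb10 to Psmb7.

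None of the 9 differences in log2 ratio (3 pairs in 3 comparisons, pseudocount 0.1 FPKM) passed a two-sided exact permutation test over all assignments of 6 against 6 libraries, for which the smallest possible p is 0.00216. TNBS minus vector gave 0.09 (95% interval -0.60 to 0.84) for Psmb8 to Psmb5, 0.06 (-0.70 to 0.80) for Psmb9 to Psmb6 and -0.12 (-0.82 to 0.54) for Psmb10 to Psmb7, each with an exact adjusted p of 0.851. IBC minus TNBS gave 0.23 (-0.68 to 1.1), 0.44 (-0.38 to 1.26) and 0.30 (-0.30 to 0.92), in that order of pairs. IBC minus vector gave 0.31 (-0.42 to 0.88), 0.50 (-0.08 to 1.04) and 0.18 (-0.36 to 0.70). The smallest exact p of the 9 was 0.0866, for Psmb9 to Psmb6 in IBC against vector (adjusted p 0.779), where 5 of 6 IBC libraries lay above the vector median. These intervals are wide, so equal ratios are not shown. With all libraries, Psmb8 to Psmb5 in IBC against vector had an exact p of 0.364 (adjusted p 0.818). Without IBC 4, the lowest of the 18 libraries in this ratio, the difference was 0.60, with an exact adjusted p of 0.0390. Among the 18 runs that each left out 1 library, this was the only ratio result under 0.05. It was picked after the values were seen.

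**Figure D4:**
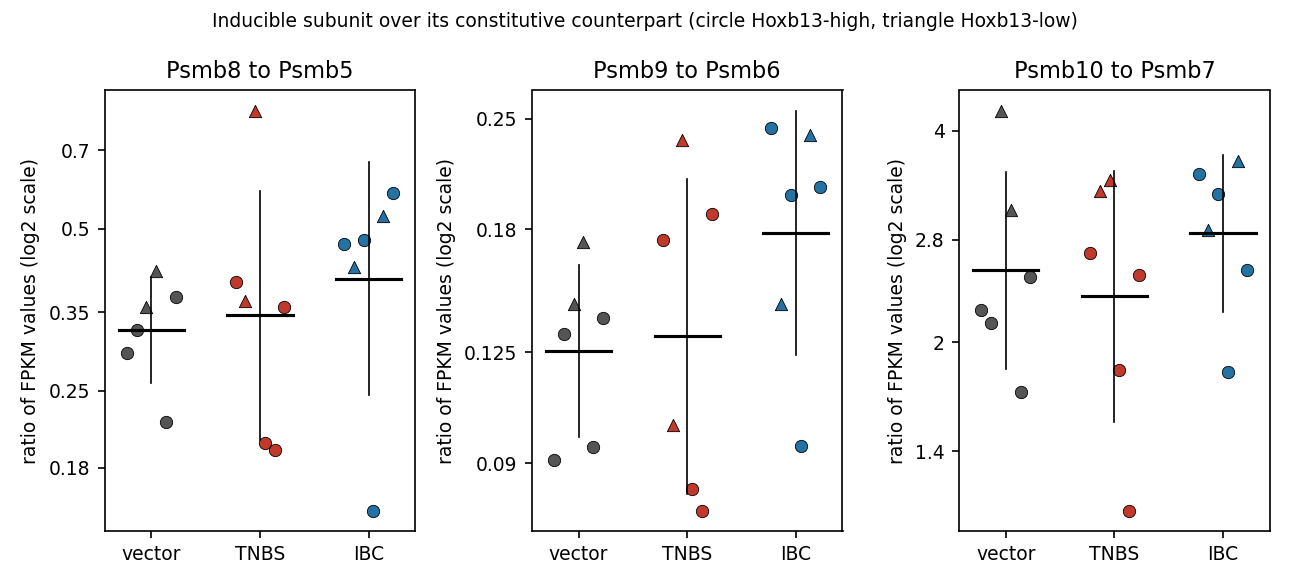
Ratio of FPKM values of each inducible subunit to its constitutive counterpart (log2 axis), 1 point a library, with the mean and SD of the log2 values as lines and triangles for Hoxb13-low libraries. For Psmb8 to Psmb5, TNBS 3 is high at 0.829, and TNBS 4 (0.200), TNBS 5 (0.194) and IBC 4 (0.150) lie under the vector range.

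The share of the inducible subunits in the summed FPKM of the 6 catalytic subunits was 41.3 ± 6.37% over the vector libraries, 41.6 ± 9.55% over TNBS and 45.6 ± 6.40% over IBC (SD, n = 6 a group). Single libraries ran from 27.5% (TNBS 5) to 53.3% (TNBS 3). On the scale of GENCODE transcript lengths the same libraries marked the ends, at 22.1% and 47.2%. The TNBS group held both the lowest and the highest share of the 18 libraries.

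IBC libraries were also set against TNBS libraries. Of 45 tested genes, 43 had a lower mean in IBC, with a median of -0.24 against 0.0023 over all genes, of which 50.3% were higher, and Psmb9 and Psma8 had a higher one. No member passed the edgeR test (the lowest adjusted p was 0.925), nor did any of all genes tested (0%). At an unadjusted p under 0.05, 0 of 45 were lower, against 2.22% of all genes. DESeq2 also had 0 of 45 lower at that limit (background 2.95%) and called 0 after adjustment, against 0.00961% of all genes. The 14 core genes had a median of -0.33, the 6 ATPases -0.18, the 13 non-ATPase subunits -0.20 and the activator group -0.03. Both comparisons with the TNBS group share its 6 libraries, so that the values of TNBS 3 and TNBS 5 enter each.

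Catalytic core subunits differed by -0.22 ± 0.25 (Psmb5), -0.34 ± 0.25 (Psmb6) and -0.42 ± 0.25 (Psmb7) between IBC and TNBS. Psmb7 ran from 65.1 to 166 CPM in IBC (median 92.3), and 3 of the 6 IBC libraries lay under the vector maximum of 94.2 CPM. The inducible subunits differed by -0.03 ± 0.41 (Psmb8), 0.13 ± 0.33 (Psmb9) and -0.06 ± 0.30 (Psmb10). Other members with the smallest p of their role were Psmc6 (-0.27 ± 0.15), Psmd6 (-0.31 ± 0.19), Psmb1 (-0.40 ± 0.22), Psma2 (-0.39 ± 0.25), Psme3 (-0.24 ± 0.17) and Psmd9 (-0.17 ± 0.21). Pomp differed by -0.31 ± 0.27, Psme1 by -0.02 ± 0.22, Psme2 by -0.24 ± 0.32, Psme4 by -0.03 ± 0.14, Psmf1 by -0.02 ± 0.11 and Psma8 by 0.43 ± 0.76.

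Single libraries weighed on this comparison. In the core, IBC 1 (77.3 CPM) and IBC 6 (83.5 CPM) lay under every vector library, IBC 3 (113) and IBC 4 (100.02) lay within the vector range, and IBC 2 (141) and IBC 5 (201) above it. Without IBC 5, 30 of 45 members were lower in IBC than in TNBS at an unadjusted p under 0.05 (background 7.26%), with a median of -0.41 and still 0 after adjustment. The median over the members shrank to -0.13 without TNBS 5, -0.14 without TNBS 3 or IBC 1 and -0.15 without IBC 6, each with 0 of 45 lower at that limit. For the core it was -0.55 without IBC 5 and -0.13 without TNBS 5, and Psmb5, Psmb6 and Psmb7 were then at -0.029, -0.12 and -0.16 without TNBS 5. Within the Hoxb13-high libraries 20 of 45 were lower at that limit (background 5.64%), with a median of -0.38. Within the Hoxb13-low libraries the median was -0.0050 and 0 of 46 were lower at that limit (background 0.85%).

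The comparison of IBC with vector sets the IBC group against the controls. All 45 tested genes had a higher mean in IBC, with a median of 0.26 against -0.01 over all genes, of which 49.1% were higher. None passed the edgeR test, as with 0% of all genes, and 1 of 45 had an unadjusted p under 0.05, against 4.9% of all genes higher. That gene was Psmb9, with 17.5 to 32.0 CPM in vector and 18.3 to 85.2 in IBC, higher than the vector median in 5 of 6 IBC libraries (0.75 ± 0.33, unadjusted p 0.0374, adjusted p 0.550). Psmb8 differed by 0.72 ± 0.41 (adjusted p 0.684) and Psmb10 by 0.46 ± 0.30 (adjusted p 0.746). Without IBC 5 the differences were 0.43 for Psmb9, 0.35 for Psmb8 and 0.15 for Psmb10. DESeq2 had 2 of 45 higher at an unadjusted p under 0.05 (background 6%) and called 0 after adjustment, against 0.93% of all genes.

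The members with the smallest p of their role were, beside Psmb9, Psmd2 (0.31 ± 0.15), Psmd9 (0.40 ± 0.21), Psmb2 (0.36 ± 0.22), Psma5 (0.40 ± 0.25) and Psmc1 (0.26 ± 0.17), with adjusted p of 0.605 to 0.735. Core genes had a median difference of 0.25 between IBC and vector, with Psmb5 at 0.29 ± 0.25, Psmb6 at 0.18 ± 0.25 and Psmb7 at 0.24 ± 0.25. Pomp ran from 60.1 to 191 CPM in IBC (median 81.4), a difference of 0.46 ± 0.27 (adjusted p 0.700). The activators differed by 0.27 ± 0.22 (Psme1), 0.33 ± 0.32 (Psme2), 0.10 ± 0.17 (Psme3) and 0.02 ± 0.14 (Psme4), the inhibitor Psmf1 by 0.11 ± 0.11 and Psma8 by 0.76 ± 0.76. Without IBC 5 the median over the 45 members was 0.06 and that of the core 0.038. Within the Hoxb13-high libraries it was -0.04, with 19 of 45 higher, and within the Hoxb13-low ones 0.77, with 28 of 46 tested under an unadjusted p of 0.05 (background 6.69%).

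In the Hoxb13-low set the core stood at 89.96 and 97.8 CPM in the vector libraries. It stood at 144 and 188 in TNBS and at 141 and 201 in IBC. Neither treated pair overlapped the vector pair, but with 2 libraries a group this is a description with no test. The share of all genes that part in this way was not counted. In the Hoxb13-high set the core stood at 97.9 to 113 CPM in vector, 94.0 to 247 in TNBS and 77.3 to 113 in IBC, which all overlapped. The inducible subunits stood at 57.8 and 60.4 CPM in the Hoxb13-low vector libraries, at 75.6 and 164 in TNBS and at 84.9 and 160.0 in IBC. In the Hoxb13-high set they overlapped, at 34.5 to 51.4, 40.1 to 69.1 and 32.4 to 78.1 CPM. The Hoxb13-low libraries were not alike in other genes. Smooth muscle markers summed to 8563 and 5965 CPM in vector 3 and 4, against 2946 to 5088 in the treated ones. Hoxb6, another homeobox gene, had 98.3 and 15.7 CPM in vector 3 and 4, against 48.0 to 93.8 in the treated ones. The part of such tissue differences was not tested.

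Genes of the wider pathway were taken from 5 lists with 71 genes, of which 69 were used. No gene of these lists passed the edgeR test after adjustment in any comparison. At an unadjusted p under 0.05, IBC against TNBS gave 1 lower gene of 18 (Txnl1) among the assembly factors and 1 higher of 19 among the interferon genes (Irf2), and 0 in the other lists, where 1.71% of all genes were higher and 2.22% lower. IBC against vector gave 3 higher and 1 lower of the 19 interferon genes and 0 in the other lists, where 4.9% of all genes were higher and 3.63% lower. Among 18 assembly chaperones and proteasome-bound factors, 15 had a higher mean in TNBS than in vector, with a median of 0.27 and 7 of 18 at an unadjusted p under 0.05, against 10.4% of all genes higher. They included Txnl1, a thioredoxin-like protein of the 19S regulator (0.41 ± 0.15), Uchl5, a deubiquitinase of the regulator (0.52 ± 0.20), and Psmd10, a chaperone of the base (0.44 ± 0.17). Against TNBS, 15 of the 18 were lower in IBC (median -0.19), with Txnl1 at -0.37 ± 0.15, Psmd5 at -0.32 ± 0.16 and Rad23b at -0.24 ± 0.14. Against vector the IBC median was 0.11, with Uchl5 at 0.31 ± 0.20, Psmd10 at 0.24 ± 0.17 and Usp14 at 0.16 ± 0.15.

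Factors known to control proteasome transcription had no shared direction. Of 12, including Nfe2l1, Nfe2l2 and the small Maf proteins, 4 had a higher mean in TNBS than in vector and 8 a lower (median -0.08), and 1 had an unadjusted p under 0.05. That was Maff (0.61 ± 0.26), with Nfyb at 0.26 ± 0.15 and Nfya at -0.25 ± 0.16 next. For IBC against TNBS the 3 smallest p were those of Nfyc (-0.17 ± 0.09), Maff (-0.31 ± 0.25) and Mafg (0.23 ± 0.19), and for IBC against vector those of Nfya (-0.28 ± 0.16), Syvn1 (-0.33 ± 0.27) and Maff (0.30 ± 0.26). The medians there were -0.07 and -0.03.

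Of 6 ubiquitin genes, 4 had a higher mean in TNBS than in vector and 2 a lower. Rps27a, which encodes ubiquitin fused to a ribosomal protein, was higher in TNBS (0.81 ± 0.30, unadjusted p 0.0159, adjusted p 0.209), with 1584 CPM in TNBS 5 against 302 to 484 in vector. For IBC against TNBS the differences were -0.59 ± 0.30 for Rps27a and -0.16 ± 0.16 for Ubb, which encodes a chain of ubiquitin units. For IBC against vector they were -0.22 ± 0.22 for Uba6, a ubiquitin-activating enzyme, and 0.21 ± 0.30 for Rps27a.

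Of 14 class I presentation genes, 9 had a higher mean in TNBS than in vector (median 0.21), and 0 had an unadjusted p under 0.05. The smallest p were those of Tapbpl, a peptide editor (0.43 ± 0.22), Pdia3, a chaperone of the loading complex (0.33 ± 0.18), and the class I gene H2-T23 (-0.45 ± 0.25). Tap1, which shares its start region with Psmb9, had 167 CPM in TNBS 3 and 113 in IBC 5, and between 18.5 and 63.6 in the other libraries. TNBS 5 was the lowest of the 18 for Tap1, at 18.5 CPM. In IBC against vector, Tap1 differed by 0.81 ± 0.44, Tapbpl by 0.37 ± 0.22 and Tap2 by 0.45 ± 0.33, and in IBC against TNBS Tapbp differed by 0.27 ± 0.23, Pdia3 by -0.17 ± 0.18 and H2-K1 by 0.20 ± 0.24.

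Of 19 interferon signalling genes, 11 had a higher mean in TNBS than in vector, and 2 had an unadjusted p under 0.05, against 10.4% of all genes. Cxcl10, a chemokine induced by interferon gamma, differed by 2.39 ± 0.63 (adjusted p 0.116) and Socs1, a feedback inhibitor of the pathway, by 1.297 ± 0.42 (adjusted p 0.176). Igtp, an induced GTPase, came next at 1.48 ± 0.73. TNBS 3 was the highest library for Cxcl10, at 20.01 CPM, and for Socs1, at 26.8 CPM. In IBC against vector Cxcl10 differed by 2.24 ± 0.63, Ifnar2 by 0.48 ± 0.21 and Irf9 by -0.48 ± 0.21, and in IBC against TNBS Irf2 differed by 0.48 ± 0.22, Socs1 by -0.66 ± 0.42 and Jak2 by 0.12 ± 0.11.

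Genes with the pattern most like that of the 2 sets were sought among 15764 other genes with a mean of at least 1 CPM, by Pearson correlation of log2 CPM over the 18 libraries, as a description with no test. The inducible subunits were followed most closely by Rad9a (0.929), Tapbpl (0.923), Irf1 (0.886) and Il18bp (0.885). Lypd8l, Trim40, Mlkl, Ifi47, Or2v1 and Ifrd1 made up the rest of the first 10, at 0.877 to 0.885. The constitutive core was followed by Gm13835 (0.988), Tomm22 and Tomm5 (0.988 each), subunits of the import pore of mitochondria, and Gm3375 (0.985). Mrpl13 and Mrps28, proteins of the mitochondrial ribosome, Erh, the core assembly chaperone Psmg3 and Rwdd1 followed at 0.981 to 0.984. The points share the library totals and scaling, and the high values of TNBS 3, TNBS 5 and IBC 5 weigh on them.

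In bulk tissue, more RNA of a gene per cell and more cells that hold it cannot be told apart. Leukocytes hold the inducible subunits without induction, and the summed level of 15 leukocyte markers (Ptprc, Cd3e, Cd79a, Csf1r and others, none at 0 in every library) was 115 to 469 CPM in vector, 170 to 320 in TNBS and 196 to 501 in IBC. The medians were 217, 257 and 347 CPM, and 14 of 15 markers had a higher mean in IBC than in vector, 14 of 15 a higher one than in TNBS, and 6 of 15 a higher one in TNBS than in vector. In TNBS 3 and IBC 5, the libraries highest in Psmb8, Psmb9 and Psmb10, it was 236 and 196 CPM, within the range of the vector libraries. Epithelial markers summed to 12658 CPM in TNBS 3, 14811 in IBC 5 (the highest of the 18) and 10917 in TNBS 5, against 8719 to 12063 in vector. TNBS 1 and TNBS 6, with the core within the vector range, also lay above the vector sums, at 12739 and 13000 CPM. The sum of TNBS 5 held unlike members. Cdh1 (266 CPM) and Vil1 (284 CPM) were the lowest of the 18 libraries there, and Epcam (1685 CPM) lay above every vector library. Smooth muscle markers were lower in TNBS than in vector in 8 of 8 genes by mean, with sums of 3001 to 8563 CPM in vector and 1932 to 4646 in TNBS. Adipocyte markers summed to 971 CPM in TNBS 2, 496 in TNBS 3 and 1042 in IBC 5. They summed to 227 CPM in IBC 2 and 89.1 in TNBS 5, against 44.4 to 552 in vector. Markers of dividing cells summed to 475 CPM in TNBS 3, 508 in IBC 5 and 311 in TNBS 5, against 164 to 427 in vector. TNBS 1 and TNBS 6 also lay above the vector sums of these markers, at 442 and 449 CPM. In TNBS 5 these markers parted. Cdk1 (97.3 CPM) and Ccnb1 (81.1 CPM) were the highest of the 18 libraries, and Mki67 (74.2 CPM) and Top2a (58.1 CPM) were next to lowest. The part of these cell types in the proteasome differences was not tested.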

How the data were processed

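Per the labels, polyadenylated RNA of mouse colon was sequenced in 18 libraries, and adapters were trimmed with cutadapt 1.9, per the submitters' processing notes. For aligner, counter, annotation and build, the sources used here give nothing. By the file headers, the authors deposited 1 table with whole-number counts per gene and FPKM values per gene, in columns of the 18 libraries, together with KEGG annotation. Within a gene the deposited FPKM values are proportional to counts, over gene lengths of the authors' choice. No 2 libraries held identical values (0 pairs).

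Counts were fitted with edgeR 4.0.16 (quasi-likelihood test, filterByExpr, TMM scaling, 1 fit of all 18 libraries, R 4.3.3), with Benjamini-Hochberg adjustment over 20855 genes and a threshold of 0.05. The fitting and test code was tested on simulated data. Ratios of FPKM values (pseudocount 0.1) were compared by exact permutation of the group labels. Alternatives were DESeq2 1.42.0, limma 3.58.1 on log2(FPKM + 0.1) and log2(FPKM + 1), no filter on low counts and a stricter one, the compared groups alone, counts divided by 4, other ratio pseudocounts, a replicate block, the Hoxb13 sets and leaving out each library. The fit without vector 3 and TNBS 5 was added after seeing the data. Replicate numbers were shared by the groups in the labels, but 7 of 18 same-numbered pairs had a correlation above 0.1, so the main fit is unpaired. Hoxb13-high means at least 10 CPM. Tables were handled with pandas 2.3.3 and drawn with matplotlib 3.10.9.

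Named in full were the catalytic and inducible subunits, Psme1 to Psme4, Psmf1, Pomp, Psma8, Psmb11 and Ifng, with the member of each role that had the highest FPKM or the smallest p, the 3 genes of smallest p in each pathway list, and the 10 genes most alike; some of these genes are not reported here. The members and lists were chosen with earlier results of these data known. Promoters came from RefSeq (GRCm38.p6) and transcript lengths from GENCODE M21. Protein sequences were not used here.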

Additional observations from a re-analysis of the deposited data

Results flagged for a closer look

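Any library whose gap to the nearest other of its group took more than 0.625 of the group's range was looked for among the members named in full, the 3 ratios and the levels of the core, of the inducible subunits and of both 19S groups. In all, 11 such values were found in 66 groups of 6 libraries. The rule flags about 1 in 20 groups of independent, normally distributed values. These groups share genes and libraries and include genes with few counts, so the 11 cannot be set against that rate. TNBS 3 stood apart from the other TNBS libraries in Psmb8 (189.8 CPM), in Psmb9 (83.3 CPM), in the geometric mean of the 3 inducible subunits (164 CPM) and in the nuclear cap Psme3 (200.4 CPM). IBC 5 stood apart from the other IBC libraries in Psme3 (162 CPM) and in the inhibitor Psmf1 (38.4 CPM). Vector 5 stood apart on the low side in Psmb8 (30.5 CPM). IBC 4 stood apart on the low side in the log2 ratio of Psmb8 to Psmb5 (-2.72). Ifng, with few counts, stood apart in vector 2 (0.0629 CPM, all other vector libraries at 0), in TNBS 3 (0.865 CPM) and in IBC 5 (0.281 CPM). Psmb5, Psmb6, Psmb7 and the geometric mean of the core gave no such value in any group.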

How the results depend on the processing

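No member passed the adjusted threshold under any alternative run. Depth limits Psma8, Psmb11 and Ifng, whose counts were few. Other members had errors set by the spread between 6 libraries a group. The replicate block, fitted although the numbers pair only libraries by name, gave medians of 0.48, -0.33 and 0.14 for the constitutive core and 0.45, 0.02 and 0.49 for the inducible subunits (TNBS against vector, IBC against TNBS, IBC against vector). With the replicate block 0 members were called, no call changed, 5 of 36 libraries correlated best with their own number, and Psmb8 in IBC against TNBS turned to 0.019. The cause of the changes below was not tested.

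In IBC against TNBS, the Hoxb13-low libraries alone turned the differences of Pomp (0.17), Psma6 (0.11), Psmb1 (0.047), Psmb10 (0.0028), Psmb4 (0.067), Psmb5 (0.21), Psmb7 (0.024), Psmc5 (0.12), Psmd9 (0.16), Psme1 (0.080), Psme2 (0.12) and Rps27a (0.0049) to positive, and the log2 ratios of Psmb8 to Psmb5 (-0.22) and of Psmb10 to Psmb7 (-0.049) to negative. The Hoxb13-high libraries alone turned Psmb8 (0.088) and Psmf1 (0.025). limma on log2(FPKM + 0.1) turned Psmb10 (0.0070), Psmb8 (0.080), Psmd2 (0.0018), Psme1 (0.053), Psme4 (0.087) and Psmf1 (0.094), and on log2(FPKM + 1) the same 6 to 0.0069, 0.078, 0.0015, 0.052, 0.079 and 0.077, with a shift in the median of all genes of 0.11 under the first.

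In IBC against vector, the Hoxb13-high libraries alone turned Psma6 (-0.19), Psmb4 (-0.13), Psmb5 (-0.16), Psmb6 (-0.16), Psmb7 (-0.14), Psmc5 (-0.083), Psme1 (-0.055), Psme2 (-0.16) and Rps27a (-0.14). The Hoxb13-low libraries alone moved the median of the core to 0.88, and turned Psme4 (-0.21) and the ratio of Psmb10 to Psmb7 (-0.16). In TNBS against vector, the ratio of Psmb8 to Psmb5 turned to -0.12 in the Hoxb13-high libraries, and the ratio of Psmb9 to Psmb6 (-0.047) and Psme4 (-0.15) turned in the Hoxb13-low ones. Without vector 3 and TNBS 5, an alternative chosen after seeing the data, Psma8 turned to -0.16. Under DESeq2, Cxcl10 passed the threshold against vector in TNBS (2.40, adjusted p 0.00456) and in IBC (2.26, adjusted p 0.0194), where its adjusted p over all alternatives ran from 0.00456 to 0.349 and from 0.0194 to 0.536.

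Leaving out 1 library at a time, the log2 ratio of TNBS over vector ran from -0.16 (without TNBS 3) to 0.25 (without TNBS 5) for Psmb8 to Psmb5, from -0.11 to 0.21 for Psmb9 to Psmb6 (the same libraries), and from -0.24 (without vector 5) to 0.080 (without TNBS 5) for Psmb10 to Psmb7. For Psmb8 to Psmb5 in IBC over vector it ran from 0.20 (without vector 5) to 0.60 (without IBC 4). In TNBS against vector Igtp ran from -0.094 (without TNBS 3) to 1.92, Psma8 from -0.21 (without TNBS 5) to 0.61, and Psme4 from -0.0027 (without TNBS 4) to 0.14. In IBC against TNBS, from the value without IBC 5 to that without TNBS 3, Psmb8 ran from -0.41 to 0.48, Psmb9 from -0.20 to 0.50, Psmb10 from -0.37 to 0.18, Psme1 from -0.21 to 0.13, Psme2b from -0.35 to 0.024 and Psmf1 from -0.067 to 0.033, while Psme4 ran from -0.098 (without TNBS 5) to 0.040 (without TNBS 4). In IBC against vector, Psma6 ran from -0.0085 to 0.37, Psme2 from -0.012 to 0.46 and Psme3 from -0.028 to 0.16, each lowest without IBC 5, and Psme4 from -0.019 (without vector 6) to 0.076 (without vector 4).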
